A study of Mus musculus with 29 samples.

Results

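The wild-type (WT) step from midbrain neural precursors (mDPC) to the matured stage of the culture (MN) was taken as 2 untreated MN WT arrays against 2 untreated mDPC WT arrays, chosen by the sample labels, 4 of the 29 arrays of a series on mouse embryonic stem cells driven towards midbrain neurons. All groups came from feeder-free cultures. Per the labels, MN cells were kept in N2 medium with ascorbic acid, and mDPC cells in N2 medium that also held FGFb, FGF8b and Shh, so the growth factors and the morphogen were not among the listed components at the later stage. The labels give no antibody stain, sort or cell count, and MN names a stage and not a measured content of neurons. The same step was also read in 2 MN and 2 mDPC arrays of WT cells given 0.5 nM LY3201, a selective agonist of estrogen receptor beta (ERβ), and in 3 MN and 2 mDPC untreated arrays of a line labelled BERKO, the name of an ERβ knockout. NPC and mDPC cells received LY3201 or DMSO for 4 days; the length of treatment at MN and the age of the cultures are not given in the sources used here. The series' design text calls the arrays of a group biological replicates without saying what separated them, so the p-values may measure little more than technical spread.

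Each array was hybridised with 150 ng of total RNA, and levels are the deposited log2 values. A log2 change is the MN WT mean minus the mDPC WT mean, given with the standard error (SE) of limma's model, n = 2 arrays a group, and a gene was called at a Benjamini-Hochberg adjusted p below 0.05 over 22063 genes tested. The SE rests on a spread per gene that all 29 arrays share, and is not the spread of the 2 arrays shown. Where the MN WT arrays differ widely, the SE and p-value can thus overstate the precision. The 95th percentile of 5222 negative control probe sets served as each array's background line: 6.94 and 6.79 in MN WT, against 7.2 and 7.34 in mDPC WT. A level below this line is not clearly told from background. Where a whole group lay below it, the fold is given as "at least", measured from the line, and where both groups lay below it no fold is given.

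During neural differentiation, precursors first make neurons and then glia: astrocytes, which carry intermediate filaments and transmitter transporters, and oligodendrocytes, which wrap axons in myelin. Radial glia also give rise to ependymal cells, whose many motile cilia stir the cerebrospinal fluid. FGF, Hedgehog and Notch signals hold precursors in an immature state, and their withdrawal is a usual way to let such cultures mature. A bulk array reads all these cells together, so that fewer cells of a type and less RNA per cell cannot be told apart in any result below.

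Of the 22063 genes tested, 9263 (42.0%) were called: 3962 (18.0%) higher and 5301 (24.0%) lower in MN WT. Each count of list members below is to be read beside these shares. Over 2-fold, 1642 genes (7.44%) were higher and 935 (4.24%) lower. The median log2 change over all tested genes was -0.1, and that of the negative controls was -0.18, with 62.6% of them lower in the MN WT mean, so small falls lie close to a shift that the controls show as well. Above the line in both arrays of at least 1 group were 8105 genes, of which 2106 were called higher and 3074 lower; 823 genes were above the line in MN WT and below it in mDPC WT, and 140 the other way round. The 4 arrays separated without overlap in 26.1% of genes with MN WT higher and in 43.4% with MN WT lower, so such separation alone says little. Called genes that lay below the line in all 4 arrays numbered 1666 among those higher and 2071 among those lower.

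The 2 MN WT arrays were less alike than the 2 mDPC WT arrays. The SD over genes of the difference between the arrays was 0.346 in MN WT and 0.227 in mDPC WT, and 333 genes lay over 2-fold apart in MN WT against 37 in mDPC WT. Of the 333 genes, 309 were higher in MN WT array 2, and neuronal genes were among them, as given with those genes below.

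Genes of the motile axoneme, the microtubule scaffold that makes a cilium beat, were higher at the MN stage. Of 50 tested members of a list of 52, 41 were called higher and 0 lower in MN WT, with a median log2 change of 1.84, beside 18.0% higher and a median of -0.1 over all genes. Of these members 14 lay above the line in MN WT and all 14 were called higher, while 34 stayed below the line in all 4 arrays.

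The promoters of members were searched for the arm of the X-box, the inverted repeat that RFX transcription factors, drivers of ciliary genes, are known to bind. GTTGCC, on either strand (read as GGCAAC on the other), was looked for in the 250 bases before the start site, from RefSeq sequence of GRCm38.p6. It was present in 18 of the 42 tested members with a promoter in that table (42.9%) and in 14 of 35 members called higher (40.0%), against 3195 of 27025 promoters in all (11.8%) and 1664 of 13032 tested genes (12.8%). The whole repeat, GTTNCC and GGNAAC with any 2 bases between them, was present in 1 of the 42 members (2.38%), Pifo, against 120 of all 27025 promoters (0.444%). A match describes the letters in this window and is no evidence of binding. Members called higher held the arm no more often than all tested members (40.0% against 42.9%). Whether the arm goes with the rise was not tested. The promoters of 4 called members with the arm are shown with that of Pifo, written 5′ to 3′ along the gene's strand and ending at the base before its start site; capitals mark GTTGCC or GGCAAC and, in Pifo, the whole repeat, whose right arm is itself a GGCAAC.
Enkur, chr2:21205366-21205615, minus strand: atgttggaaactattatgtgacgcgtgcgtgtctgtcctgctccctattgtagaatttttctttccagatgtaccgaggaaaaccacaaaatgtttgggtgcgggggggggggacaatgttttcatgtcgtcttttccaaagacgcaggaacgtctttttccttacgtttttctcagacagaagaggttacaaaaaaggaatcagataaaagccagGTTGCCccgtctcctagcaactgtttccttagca
Cfap44, chr16:44394549-44394798, plus strand: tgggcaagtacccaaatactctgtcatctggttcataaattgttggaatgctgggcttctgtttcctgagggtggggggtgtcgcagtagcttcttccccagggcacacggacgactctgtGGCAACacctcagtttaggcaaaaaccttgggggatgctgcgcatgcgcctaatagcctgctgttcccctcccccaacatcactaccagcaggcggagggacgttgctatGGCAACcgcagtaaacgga
Iqcg, chr16:33056187-33056436, minus strand: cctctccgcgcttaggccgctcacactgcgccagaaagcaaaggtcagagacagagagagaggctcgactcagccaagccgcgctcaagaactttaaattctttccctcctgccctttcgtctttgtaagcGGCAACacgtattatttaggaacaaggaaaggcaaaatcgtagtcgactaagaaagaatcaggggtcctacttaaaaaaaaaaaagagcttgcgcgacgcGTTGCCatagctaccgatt
Mlf1, chr3:67373847-67374096, plus strand: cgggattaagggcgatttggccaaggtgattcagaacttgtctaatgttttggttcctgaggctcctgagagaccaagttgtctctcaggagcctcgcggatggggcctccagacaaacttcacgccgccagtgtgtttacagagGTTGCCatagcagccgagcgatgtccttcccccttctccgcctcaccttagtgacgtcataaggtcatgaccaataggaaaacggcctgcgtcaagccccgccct
Pifo, chr3:106001498-106001747, minus strand: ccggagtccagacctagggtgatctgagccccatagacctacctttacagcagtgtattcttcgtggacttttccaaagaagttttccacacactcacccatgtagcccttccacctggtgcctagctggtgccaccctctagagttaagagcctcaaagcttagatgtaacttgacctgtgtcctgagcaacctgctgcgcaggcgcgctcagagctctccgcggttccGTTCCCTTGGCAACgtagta
In Cfap44 and Iqcg the match nearest to the start site lay 13 bases before it, in Enkur 28, in Mlf1 99, and in Pifo the repeat ended 6 bases before it.

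Rsph4a, a head protein of the radial spoke, had a log2 level of 12.95 and 12.92 in the MN WT arrays, against 4.31 and 4.43 in the mDPC WT arrays. It was at least 50.8-fold higher (log2 change 8.56 ± 0.2, adjusted p = 6.5e-17). Both mDPC WT values lay far below the line and both MN WT values far above it. Enkur, which encodes an adaptor protein of sperm and cilia and whose promoter is shown above, stood at 12.05 and 11.77 in MN WT, against 4.32 and 4.2 in mDPC WT, at least 25-fold higher (7.65 ± 0.22, adjusted p = 1.1e-15). Tppp3, a tubulin-binding protein, followed with 10.61 and 10.92 against 4.69 and 4.79, at least 11.3-fold higher. Iqcg and Ccdc39, which help to place the inner dynein arms and the links between microtubule doublets, were at least 8.91-fold and 4.57-fold higher, with Iqcg at 10.63 and 10.22 in MN WT against 5.97 and 5.94 in mDPC WT. Mns1, a protein inside the microtubule doublets, was at least 8.15-fold higher, Cfap206 at least 3.87-fold, Cfap44 at least 2.83-fold, Rsph1 at least 2.16-fold and Mlf1 at least 1.8-fold. In none of these genes did the groups overlap.

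Several members known best from motile cilia read low. Dnah5, the heavy chain of the outer dynein arm, read 5.96 and 5.89 in MN WT, against 3.24 and 3.39 in mDPC WT (log2 change 2.61 ± 0.12, adjusted p = 1.5e-12). Hydin, of the central pair, changed by 1.58 ± 0.17, Tekt1, a tektin, by 1.46 ± 0.16 and Pifo by 1.67 ± 0.09. All 4 were called higher with no overlap of the groups, yet every value lay below the background line. Tmem212, used as an ependymal marker, read 4.04 and 4.49 in MN WT, against 3.58 and 3.42 in mDPC WT (0.77 ± 0.18, adjusted p = 0.0016).

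Transport and assembly genes of the cilium rose with the axoneme. All 14 tested genes whose symbol starts with Ift, the intraflagellar transport particles that carry cargo along the cilium, were called higher in MN WT, all of them above the line, by log2 changes of 0.6 (Ift46) to 3.04 (Ift22). Of 33 genes named Cfap, 29 were higher and 0 lower, beside 18.0% higher over all genes. Only 11 of the 33 lay above the line in both arrays of at least 1 group, and all 11 were called higher. Cfap genes such as Cfap44 and Cfap206 are also members of the axoneme list. These families were picked after their values were seen.

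**Figure D1:**
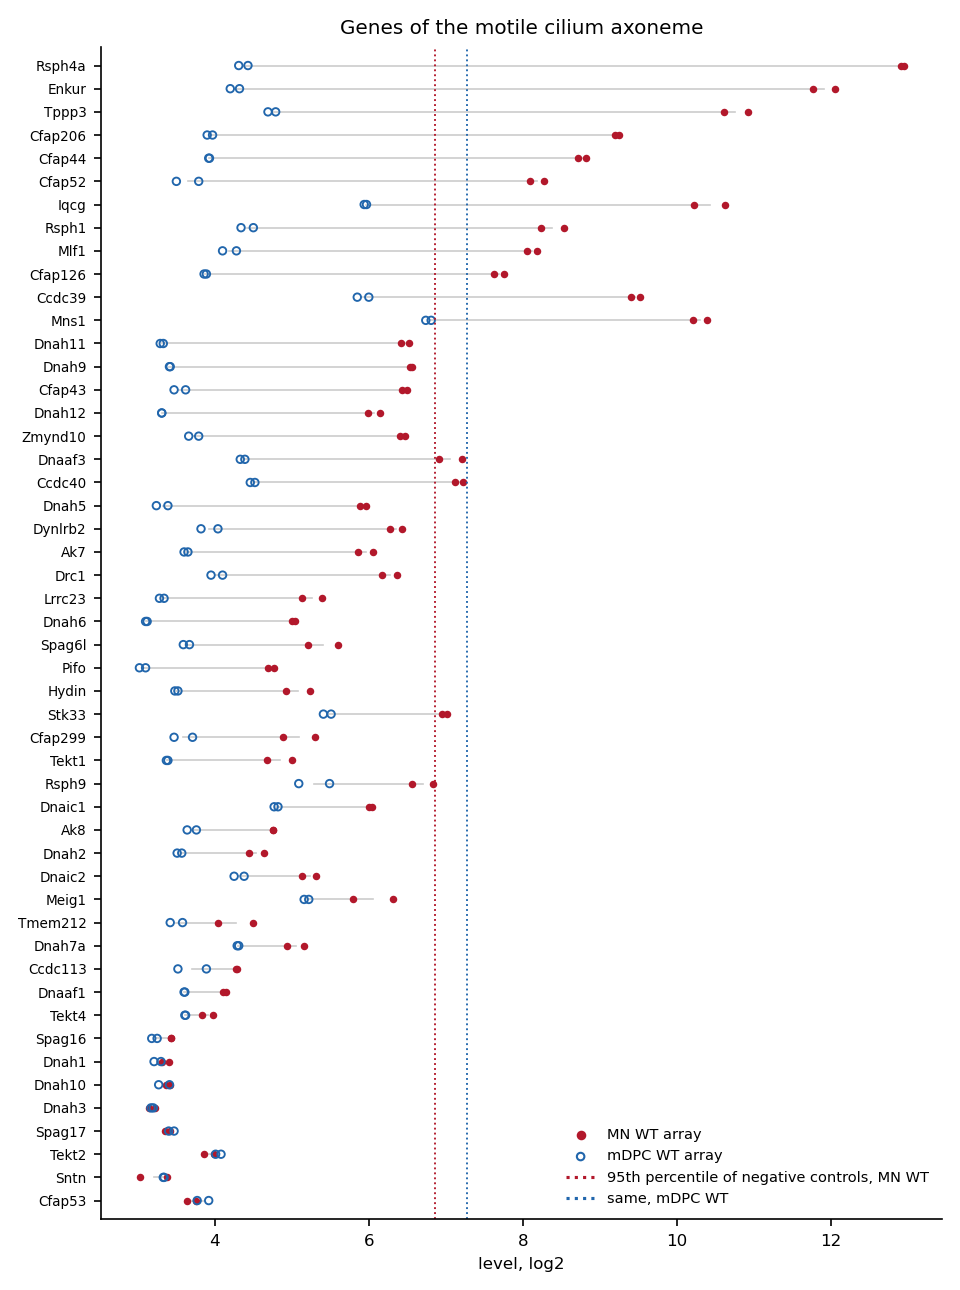
Log2 level (x axis) of the 50 tested motile axoneme genes (rows) in the 2 MN WT arrays (filled red) and the 2 mDPC WT arrays (open blue); dotted lines mark the mean background line of each group. Rsph4a, Enkur and Tppp3 lie far to the right in MN WT, and most of the other members stay left of the lines in all 4 arrays.

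Of the regulators, Rfx2 was at least 1.44-fold higher (7.7 and 7.89 in MN WT, against 5.76 and 5.57 in mDPC WT; log2 change 2.13 ± 0.16, adjusted p = 1.2e-09). Rfx3, also an RFX factor, was above the line throughout, at 11.79 and 11.71 in MN WT against 10.9 and 10.8 in mDPC WT (0.9 ± 0.12, adjusted p = 4e-06). Deup1, of the deuterosomes on which multiciliated cells amplify centrioles, read 4.38 and 4.22 against 3.54 and 3.56 and was called (0.75 ± 0.17, adjusted p = 0.001), as was Myb (0.47 ± 0.14, adjusted p = 0.0099), both below the line in all 4 arrays. The Myb call was lost without MN WT array 1 or mDPC WT array 1 (changes of 0.41 and 0.32). It was also lost in a fit of only the arrays compared (adjusted p = 0.052). Mcidas and Ccno, which start the multiciliated programme, did not pass (0.24 ± 0.15 and 0.18 ± 0.16), and E2f4 and E2f5, partners of the Mcidas protein, fell by 0.73 and 0.86. In all, 5 of 12 tested regulators were called higher and 2 lower, beside 18.0% higher and 24.0% lower over all genes. Foxj1, the best known driver of motile cilia, had no cluster with a single symbol and was not analysed here. Choroid plexus, the other ciliated epithelium of the ventricles, left no clear trace: of 12 listed genes 7 were tested, Aqp1 and Folr1 were called higher by 0.92 ± 0.11 and 0.6 ± 0.12, and every value of all 7 lay below the line. Its marker Ttr stayed below the filter.

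Astrocyte genes split. Of 24 tested members of a list of 26, 5 were higher and 14 lower in MN WT (median log2 change -0.46). Gfap, the intermediate filament protein of astrocytes, read 18.95 and 18.9 in MN WT, against 16.29 and 16.77 in mDPC WT (log2 change 2.39 ± 0.22, adjusted p = 2.5e-08). Its MN WT values lay near the top of the measured scale, where it was not tested whether levels can be told apart. The size of its rise is thus uncertain. Clu, a secreted chaperone, read 14.79 and 14.68 against 10.65 and 10.6 (4.11 ± 0.18, adjusted p = 5.4e-13), and S100b, a calcium-binding protein, read 12.27 and 11.64 against 10.04 and 9.72 (2.08 ± 0.26). The astroglial factor Sox9 rose by 0.59 ± 0.12 and the membrane protein Mlc1 by 0.42 ± 0.07.

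The falling astrocyte genes included those of transport and metabolism. Sparcl1, a secreted synapse-promoting protein, read 16.79 and 16.62 in MN WT, against 19.02 and 18.9 in mDPC WT (log2 change -2.26 ± 0.15, adjusted p = 1.9e-10). Its mDPC WT values also lay near the top of the measured scale, so the size of its fall is uncertain. The glutamate transporters Slc1a2 and Slc1a3 fell by 1.36 and 1.13, with Slc1a2 at 13.38 and 13.15 in MN WT against 14.73 and 14.51 in mDPC WT. The lipid carrier Apoe fell by 0.94 and Ndrg2 by 0.87. Aldoc, a glycolytic enzyme, changed by -0.36 ± 0.13 (adjusted p = 0.026), a call that was lost after quantile normalization (-0.25, adjusted p = 0.12). With MN WT array 1, MN WT array 2 or mDPC WT array 1 left out the call was lost too, with changes of -0.36, -0.37 and -0.3. The water channel Aqp4 did not pass (-0.17 ± 0.16, adjusted p = 0.42). Aldh1l1 and Gja1 fell by 0.92 and 0.58 at levels below the line.

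Genes that astrocytes raise in injury and inflammation mostly rose. Of 19 tested members of a reactive glia list, 15 were higher and 2 lower, with a median log2 change of 2.3. Serping1, the inhibitor of complement C1, read 14.78 and 15 in MN WT, against 5.34 and 5.08 in mDPC WT, at least 197-fold higher (adjusted p = 4.7e-18). Serpina3n, a protease inhibitor of a family of near-identical genes that probes may not separate, was at least 54-fold higher, with 12.73 and 13.32 against 5.54 and 5.29. Osmr, the receptor of oncostatin M, was at least 20.6-fold higher, the metalloreductase gene Steap4 at least 3.63-fold and the guanylate-binding protein gene Gbp2 at least 9.84-fold. Above the line in both groups, Cd109 rose by 6.41 ± 0.2 to 15.64 and 15.4 (mDPC WT 8.94 and 9.27), ceruloplasmin, Cp, by 4.18 ± 0.12, vimentin, Vim, by 2.1 ± 0.12 and the hyaluronan receptor gene Cd44 by 1.57 ± 0.14. Vim, also on the neural stem and radial glia list, read 18.63 and 18.59 in MN WT and had already read 18.15 and 18.19 in NPC WT. Cd109 had read 11.98 and 11.87 in NPC WT and Cd44 6.98 and 7.03. Emp1 fell by 1.59 and the alarmin gene Il33 was at least 2.52-fold lower in MN WT.

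All 7 tested complement genes of 17 listed were higher (median log2 change 4.11). C4b, which shares most of its sequence with C4a, read 14.04 and 13.9 in MN WT, against 4.95 and 4.76 in mDPC WT, at least 104-fold higher (9.12 ± 0.11, adjusted p = 7.8e-21). The regulators that shield a cell's own surface moved the same way. Cd55 was at least 12-fold higher, and Cd59a, one of 2 related mouse genes, at least 1.13-fold. C1ra rose by 1.74 ± 0.12 below the line. The C1q genes, a microglial product in brain, stayed below the filter, and all 4 tested members of 13 microglia genes lay below the line in every array (1 called, P2ry12, 0.59 ± 0.14).

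Oligodendrocyte genes divided by stage of the lineage. Of 18 tested myelin genes of 21 listed, 18 were called higher in MN WT (median log2 change 4.07). Mobp, a protein of compact myelin, read 11.5 and 10.48 in MN WT, against 3.31 and 3.32 in mDPC WT, at least 13.2-fold higher (7.67 ± 0.3, adjusted p = 1.1e-13). Transferrin, Trf, was at least 103-fold higher (14.08 and 13.85 against 6.51 and 6.2), and Mal, a myelin proteolipid, at least 28.6-fold (12.33 and 11.88 against 4.46 and 4.56). Mag, the adhesion protein next to the axon, was at least 2.74-fold higher, with 9.03 and 8.41 against 3.3 and 3.35. Ugt8a, which makes the galactolipid of myelin, was at least 8.55-fold higher, Enpp6 at least 3.41-fold, and Myrf, the transcription factor that switches myelin genes on, at least 1.38-fold. Mbp, the classic myelin basic protein gene, reached 7.22 and 7.11 against 3.79 and 3.75 (3.4 ± 0.22), and Mog 7.19 and 6.49 against 2.97 and 3.04, values at or just past the line.

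The precursors of that lineage did not rise with it. Of 13 tested precursor genes, 3 were higher and 4 lower. Gpr17, the receptor of the stage between precursor and myelinating cell, read 10.49 and 9.08 in MN WT, against 12.81 and 13.46 in mDPC WT (log2 change -3.34 ± 0.3, adjusted p = 2.1e-08). Sox8 fell by 3.11 (9.34 and 8.56 against 12.13 and 12) and Olig1 by 1.58. Olig2, the lineage's determining factor, stood at 12.91 and 12.3 against 12.63 and 12.65 and did not pass (-0.04 ± 0.18, adjusted p = 0.9). Sox10 changed by 0.54 ± 0.18 (adjusted p = 0.017) below the line, and its call was lost without MN WT array 1 (adjusted p = 0.2) or either mDPC WT array (0.069 and 0.063). Array 1 of MN WT had the higher value in 15 of the 18 myelin genes, with a median of array 2 minus array 1 of -0.53.

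**Figure D2:**
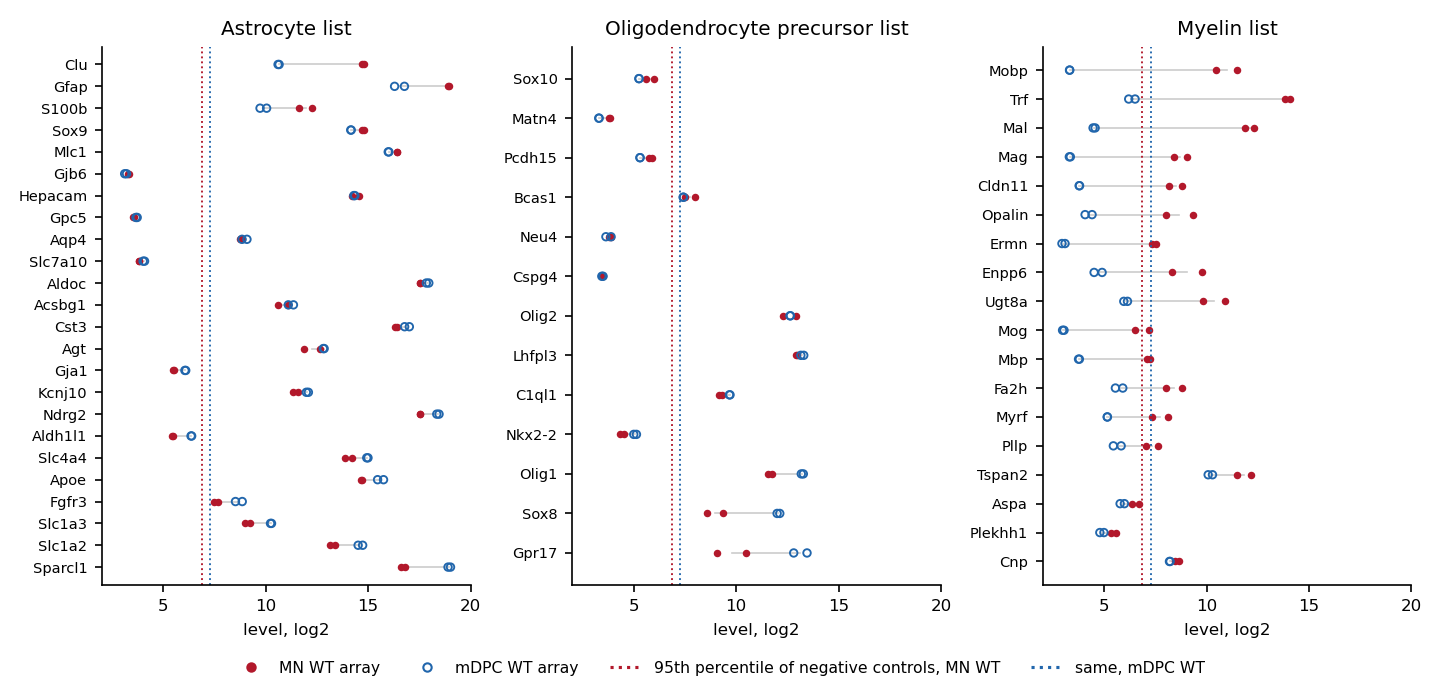
Log2 level (x axis) of astrocyte, oligodendrocyte precursor and myelin genes (rows, 1 panel each) in the 2 MN WT arrays (filled red) and the 2 mDPC WT arrays (open blue), with dotted mean background lines. Myelin genes lie right of their mDPC WT values throughout, astrocyte genes on either side, and Gpr17 and Sox8 to the left.

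Neuronal genes rose in part, and by amounts that depended on the array. Of 28 tested pan-neuronal genes of 29 listed, 12 were higher and 6 lower (median log2 change 0.4). Stmn2, a growth cone protein that binds tubulin, read 10.75 and 13.85 in MN WT, against 5.97 and 6.21 in mDPC WT, at least 32.7-fold higher (6.21 ± 0.64, adjusted p = 1.4e-07). Gap43, also of growing axons, read 10.3 and 11.36 against 8.18 and 8.22 (2.62 ± 0.26), Uchl1, an abundant neuronal deubiquitinase, 10.02 and 10.51 against 7.89 and 8.02 (2.31 ± 0.12), and Tubb3, neuronal tubulin, 9.19 and 11.37 against 8.55 and 8.47 (1.77 ± 0.4, adjusted p = 0.0012). Elavl3, an RNA-binding protein of new neurons, was at least 3.09-fold higher. In these 5 genes both MN WT arrays lay above both mDPC WT arrays. In the WT embryonic stem cell arrays Stmn2 read 16.05 and 15.92, above both MN WT arrays, so its high level was not particular to the MN stage. Tubb3 read 9.76 and 10.02 there, above MN WT array 1, while Uchl1 read 8.82 and 8.93, below both MN WT arrays. The size for Tubb3 rested mostly on MN WT array 2: without it the change was 0.68 (adjusted p = 0.02), and in a fit of only the arrays compared Tubb3 was not called (adjusted p = 0.11).

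For other neuronal genes the rise rested on a single array. Snap25, of the synaptic fusion machinery, read 6.36 and 9.62 in MN WT, against 5.57 and 5.63 in mDPC WT (log2 change 2.39 ± 0.62, adjusted p = 0.0039). Syt1, the calcium sensor of transmitter release, read 6 and 8.87 against 5.1 and 5 (2.38 ± 0.58), and Nefl, a neurofilament, 4.72 and 7.75 against 3.88 and 4.31 (2.14 ± 0.62). Only array 2 of MN WT lay above the line in these 3 genes. Without it, all 3 calls were lost, with changes of 0.76, 0.95 and 0.62. The call of Nefl was also lost without mDPC WT array 1 (change 1.92). In a fit of only the arrays compared none of the 3 was called (adjusted p = 0.14, 0.1 and 0.15). Of the 28 genes, 27 were higher in MN WT array 2 than in array 1, with a median difference of 0.88, beside 0.04 between the mDPC WT arrays.

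**Figure D3:**
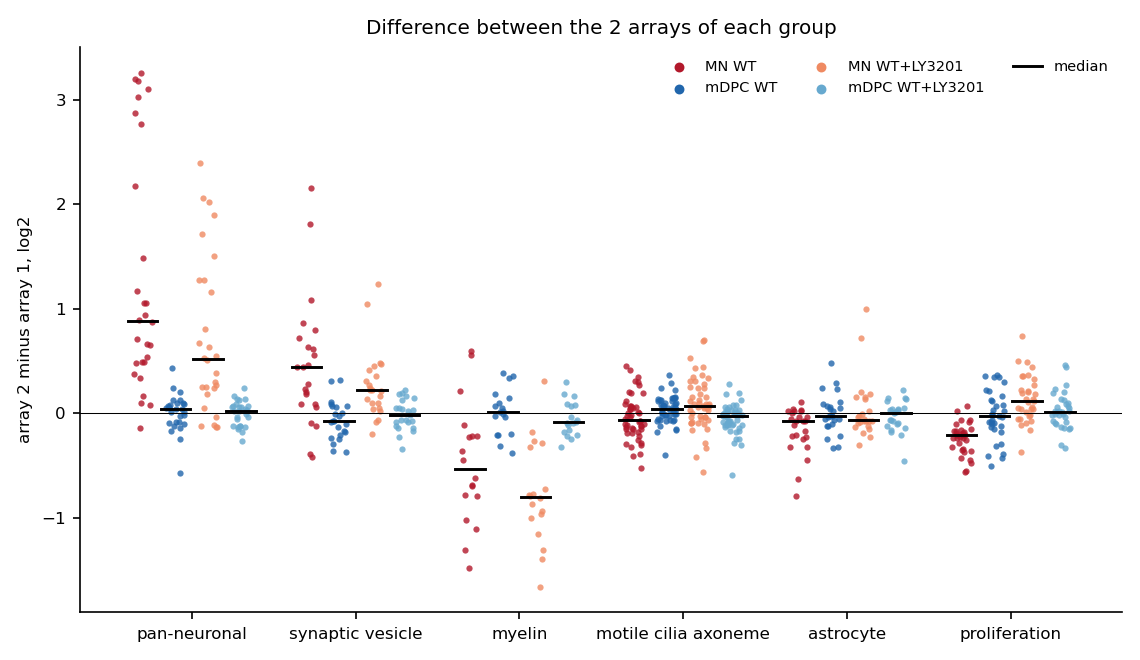
Array 2 minus array 1 (log2, y axis) for the members of each gene list, in MN WT, mDPC WT, MN WT with LY3201 and mDPC WT with LY3201. Pan-neuronal genes lie above 0 in both MN pairs (medians 0.88 and 0.52) and myelin genes below it (medians -0.53 and -0.8), while the mDPC pairs lie near 0.

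Neuronal genes that fell included some of migrating and early neurons and some of mature ones. Dcx, the microtubule protein of migrating neurons, read 8.68 and 9.55 in MN WT, against 11.44 and 11.19 in mDPC WT (log2 change -2.2 ± 0.28, adjusted p = 2.9e-06). Map2, of dendrites, fell by 1.36 (12.5 and 12.6 against 13.88 and 13.93) and the synapsin gene Syn2 by 1.07. Rbfox3, whose protein is the nuclear antigen NeuN, fell by 1.43, with all values below the line. The proneural and immature-neuron list held 12 tested genes, of which 8 were lower and 0 higher (median -0.83): Sox4 fell by 2.25 (13.03 and 13.29 against 15.48 and 15.35), Sox11 by 1.57 and Neurod4, below the line, by 1.76, while Btg2 was at least 2.3-fold lower in MN WT. Of 23 tested synaptic vesicle genes 8 were higher and 7 lower, beside 18.0% higher and 24.0% lower over all genes. Unc13c, a priming factor, rose by 3.33 ± 0.17 (7.15 and 6.73 against 3.76 and 3.47) and Syt7 fell by 0.85.

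Few transmitter genes were read above background. Gad1 and Gad2, which make GABA, and the vesicular GABA transporter Slc32a1 lay below the line in all 4 arrays, with Gad2 at 3.93 and 5.86 in MN WT against 3.98 and 3.99 in mDPC WT. Gad1 was called (0.75 ± 0.18, adjusted p = 0.002), as was Gad2 (0.91 ± 0.35, adjusted p = 0.041), but without MN WT array 2 the change of Gad2 was -0.05 (adjusted p = 0.85), and the called members of the GABAergic list numbered 2 in place of 6. In a fit of only the arrays compared neither was called (Gad1 adjusted p = 0.13, Gad2 0.31), and without MN WT array 2 the change of Gad1 was 0.26 (adjusted p = 0.047). Slc17a6, a vesicular glutamate transporter, read 4.4 and 6.29 against 2.94 and 3.11 (2.32 ± 0.68, adjusted p = 0.0097) and was not called without array 2 (1.37, adjusted p = 0.19). The serotonin transporter gene Slc6a4 read 3.58 and 6.1 against 3.64 and 3.69 (1.18 ± 0.42, adjusted p = 0.032). Its change was -0.08 without MN WT array 2, and it was not called in a fit of only the arrays compared (adjusted p = 0.31). Without mDPC WT array 1 or 2 the calls of Gad2 (adjusted p = 0.12 each) and Slc6a4 (0.11 and 0.093) were lost too, as was that of Slc17a6 without array 1 (0.052). Slc32a1 read 3.04 and 4.71 in MN WT, against 3.27 and 3.31 in mDPC WT, and was called only without MN WT array 1 (adjusted p = 1.2e-06). Pvalb, a calcium buffer of fast-spiking cells, read 7.11 and 6.73 in MN WT, on either side of the line, against 4.15 and 4.24 in mDPC WT.

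Genes of midbrain dopaminergic neurons, the cells that midbrain precursors are grown to give, were mostly near background. Th, which makes the precursor of dopamine, and Pitx3 stayed below the filter, and of the other defining genes Foxa2, Lmx1a, Nr4a2, Slc18a2 and Slc6a3 none passed the test and none was above the line, the highest being Nr4a2 with 6.11 and 6.29 in MN WT against 6.1 and 6.17 in mDPC WT (0.06 ± 0.1). Without MN WT array 1, Slc18a2 was called (0.73, adjusted p = 2.3e-06), as was Foxa2 after quantile normalization (-0.26, adjusted p = 0.034). Of the 16 tested members 6 were higher and 1 lower. Above the line were Gfra1, a GDNF receptor, with 9.63 and 10.06 against 7.21 and 7.15 (2.66 ± 0.24, adjusted p = 2.5e-08), and the retinal dehydrogenase gene Aldh1a1, with 13.96 and 13.67 against 12.94 and 12.98 (0.85 ± 0.21, adjusted p = 0.0023). Ddc and Gch1, of monoamine synthesis, rose by 1.03 ± 0.15 and 1.54 ± 0.14, and En2 by 0.89 ± 0.17, all below the line. Among regional factors En2 was the single gene to rise and 7 of 17 fell, Hoxc8, a factor of the trunk spinal cord, by 1.94 (6.75 and 6.85 against 9.01 and 8.46).

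Channels and receptors also went both ways. Of 21 tested transmitter receptor genes 5 were higher and 8 lower, beside 18.0% higher and 24.0% lower over all genes. The metabotropic GABA receptor subunit Gabbr2 read 5.53 and 6.57 in MN WT, against 12.56 and 12.62 in mDPC WT, at least 52.9-fold lower (adjusted p = 2.5e-12), Gabrg1, an ionotropic subunit, fell by 2.34 and the kainate receptor gene Grik2 by 2.07. Of 21 tested ion channel genes 9 were higher and 5 lower, a count of 4 and 5 without MN WT array 2: Cacna1a, the pore of a presynaptic calcium channel, was at least 1.28-fold higher by the mean of its arrays (7.52 and 7.73 against 6.04 and 6.08), and Kcnd2, a potassium channel, fell by 3.4 (7.6 and 8.69 against 11.65 and 11.44).

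The neural stem and radial glia list did not move as a block: 3 of 18 tested genes were higher and 9 lower. Nes, the intermediate filament nestin, read 13.51 and 13.14 in MN WT, against 9.36 and 9.2 in mDPC WT (log2 change 4.05 ± 0.22, adjusted p = 1.2e-11); it had read 12.64 and 12.79 in the earlier NPC WT arrays. Sox2 did not pass, at 14.14 and 14.06 against 14.24 and 14.05 (-0.05 ± 0.12), and neither did the fatty acid binding protein gene Fabp7, at 19.1 and 19.1 against 19.26 and 19.16. All Fabp7 values lay near the top of the measured scale. Whether the arrays can tell levels apart there was not tested, so a change in Fabp7 could be missed. Prom1, a membrane protein of stem cells, fell by 2.84 (9.06 and 9.27 against 12.01 and 12.01) and Tnc, a matrix protein of the stem cell niche, by 5.54 (7.45 and 7.53 against 13.22 and 12.84).

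Proliferation genes were higher after the step. Of 33 tested genes 29 were higher and 0 lower (median log2 change 1.52). Mki67, which coats mitotic chromosomes, read 12.24 and 11.69 in MN WT, against 7.96 and 7.83 in mDPC WT (4.07 ± 0.2, adjusted p = 3.4e-12), and had stood at 14.83 and 15.19 in NPC WT. Top2a, which untangles replicated DNA, rose by 2.91 ± 0.12 and the spindle motor gene Kif11 by 2.93 ± 0.11, while Ccna2, a cyclin of S and G2 phase, was at least 3.88-fold higher. Ccnd2, a cyclin of G1 phase, read 12.93 and 12.89 against 10.32 and 10.19 (2.66 ± 0.13). Of the inhibitors of the cycle, Cdkn1a rose by 1.21 ± 0.21 and Cdkn1b fell by 1.05. Both MN WT arrays lay above both mDPC WT arrays in each rising gene named here and below both NPC WT arrays in Mki67.

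Of the Hedgehog list Ptch1, the receptor that the pathway itself induces, read 8.99 and 9.04 in MN WT, against 11.9 and 11.88 in mDPC WT (log2 change -2.88 ± 0.09, adjusted p = 7.8e-15). Gli2 and Gli3, the pathway's transcription factors, fell by 1.22 and 0.86, Gli2 below the line, and the co-receptor gene Cdon was at least 1.66-fold higher. Gli1, the usual readout, lay below the line and did not pass (-0.12 ± 0.08). In all, 3 of 14 tested genes were higher and 5 lower, counts not far from the shares over all genes (18.0% higher and 24.0% lower).

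Of 15 tested genes of FGF feedback and reception, 3 were higher and 7 lower, beside 18.0% higher and 24.0% lower over all genes. Spry2, an inhibitor that FGF induces, read 8.8 and 8.77 in MN WT, against 11.11 and 10.66 in mDPC WT (-2.1 ± 0.16, adjusted p = 2.1e-09). Spred1, of the same family, fell by 1.47, Etv5, a factor downstream of FGF, was at least 1.88-fold lower in MN WT, and Fgfr3 fell by 1.12. Dusp6, a phosphatase that FGF also induces, went the other way, by 1.18 ± 0.19 at levels below the line (6.72 and 6.64 against 5.79 and 5.2), and the receptor gene Fgfr1 rose by 1.02 ± 0.08.

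In the Notch list 10 of 17 tested genes were lower and 1 higher (median log2 change -0.88). The ligand gene Jag1 read 5.33 and 5.36 in MN WT, against 9.68 and 9.4 in mDPC WT, at least 6.38-fold lower (adjusted p = 1.6e-15), and the ligand gene Dll1 6.02 and 5.98 against 9.24 and 8.75, at least 4.37-fold lower. Of the targets, Hey1 fell by 2.03 (9.81 and 9.73 against 11.91 and 11.68), Nrarp was at least 1.55-fold lower, and Hes5 fell by 1.99 below the line. Among receptors Notch1 fell by 0.88, Notch3 was at least 2.84-fold lower and Notch2 was the gene that rose, by 0.81 ± 0.18.

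Of 20 tested Wnt genes 9 were lower and 3 higher, with the pathway's own target Axin2 down by 1.21 (6.16 and 6.05 against 7.44 and 7.18), the ligand gene Wnt7a by 1.43 below the line and the receptor gene Lgr5 at least 1.64-fold lower. BMP genes were mixed, 6 of 19 higher and 4 lower, beside 18.0% higher and 24.0% lower over all genes. The ligand gene Bmp6 read 9.43 and 8.49 in MN WT, against 4.76 and 4.71 in mDPC WT, at least 3.22-fold higher (adjusted p = 2.7e-11); the target genes Id1 and Id4 rose, Id1 at least 1.43-fold and Id4 by 1.47 ± 0.28, whereas Id2 fell by 0.98 and the receptor gene Bmpr1b by 1.78.

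Matrix genes went both ways. The hyaluronan-binding proteoglycans of the young brain fell: neurocan, Ncan, read 9.66 and 9.84 in MN WT, against 17.06 and 16.79 in mDPC WT (log2 change -7.17 ± 0.14, adjusted p = 4.7e-18), brevican, Bcan, fell by 4.24 and versican, Vcan, by 3.92. Fibronectin, Fn1, rose by 3.77 ± 0.23 (15.64 and 15.36 against 11.69 and 11.79), the matricellular gene Thbs1 was at least 7.34-fold higher and the collagen gene Col6a1 at least 3.82-fold. Of 24 tested matrix genes 9 were higher and 9 lower, beside 18.0% higher and 24.0% lower over all genes.

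Markers of mural cells and fibroblasts, which share matrix genes with reactive glia, moved with this change, and their part in it was not tested. Of 12 tested, 10 were higher and 0 lower (median 1.96). Acta2, smooth muscle actin, read 10.54 and 10.55 in MN WT, against 4.6 and 4.84 in mDPC WT, at least 9.67-fold higher (adjusted p = 4.3e-12), and the proteoglycan gene Dcn 9.83 and 10.17 against 5.38 and 5.41, at least 6.65-fold higher. Collagen Col1a1 was near the line, at 7.1 and 6.97 against 4.65 and 4.74 (2.34 ± 0.33), and the pericyte receptor gene Pdgfrb rose by 0.86 ± 0.13 below it. Of 5 tested endothelial genes, all below the line, 1 was called, Emcn (0.74 ± 0.15), and the defining genes Cdh5 and Cldn5 stayed below the filter.

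Interferon-response genes were higher, 17 of 22 tested with 0 lower (median 0.86), though few were bright. Ifitm3, a membrane restriction factor, read 12.58 and 12.66 in MN WT, against 7.2 and 7.33 in mDPC WT (log2 change 5.35 ± 0.26, adjusted p = 2.8e-12). Ifih1, a sensor of viral RNA, was at least 1.29-fold higher, and Ifit1 rose by 2.48 ± 0.36 and Ifit3 by 2.23 ± 0.25 below the line; Ifit genes have close relatives that probes may not separate. Of 10 tested genes of MHC class I presentation 7 were higher and 0 lower, with the light chain B2m at 15.34 and 15.26 against 14.07 and 14.49 (1.02 ± 0.17) and the highly related H2-D1 and H2-K1 up by 1.06 ± 0.1 and 0.97 ± 0.09 below the line.

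**Figure D4:**
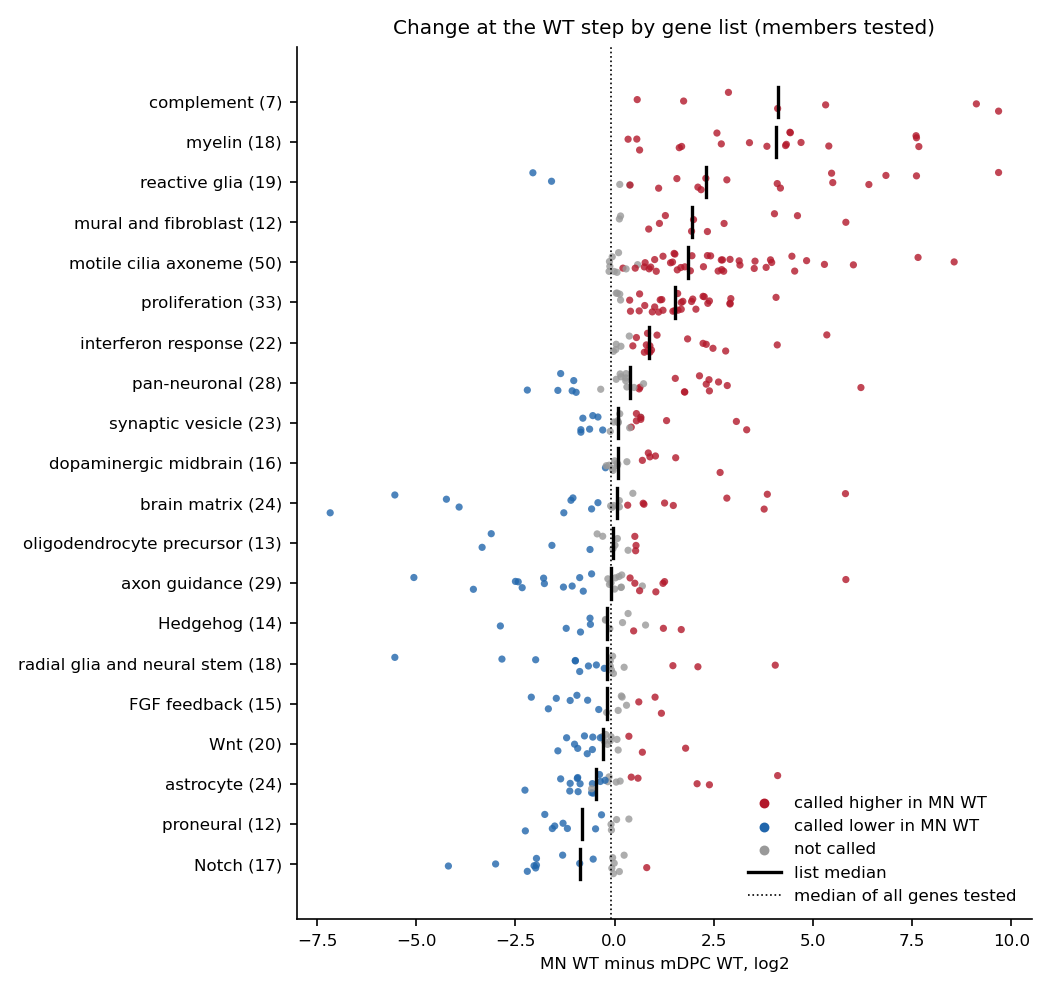
Log2 change, MN WT minus mDPC WT (x axis), of each tested member of 20 gene lists (rows), coloured by whether it was called higher, called lower or not called, with a bar at the list's median; the dotted line is the median of all genes, -0.1. Myelin (median 4.07), reactive glia (2.3), axoneme (1.84) and proliferation genes (1.52) lie mostly right of it, and Notch (-0.88) and proneural genes (-0.83) left.

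The largest single rises included genes outside these lists. Elobl, with no role given here, read 18.11 and 18.29 in MN WT, against 3.82 and 3.69 in mDPC WT, at least 1950-fold higher (log2 change 14.45 ± 0.33, adjusted p = 5.4e-17). Tm4sf1, a membrane protein of migrating cells, was at least 279-fold higher, Ccn1, a matricellular protein that cell stretch induces, at least 166-fold, Slc14a1, the urea transporter of astrocytes, at least 164-fold, Ecrg4, a secreted peptide precursor, at least 152-fold, and Fmod, a collagen-binding proteoglycan, at least 51.9-fold. Prelp, of the same family of leucine-rich proteoglycans, rose by 7.86 ± 0.15, to 17.11 and 17.12 against 9.18 and 9.34. The groups did not overlap in any of these, as the rule that picked the largest rises required.

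Among the falls, Nell2, a secreted neuronal glycoprotein, read 8.49 and 9.34 in MN WT, against 16.52 and 16.01 in mDPC WT (-7.35 ± 0.19, adjusted p = 4.4e-16). Mfge8, a bridge for engulfment of dying cells, fell by 6.54, Slc6a11, the GABA transporter of astrocytes, by 5.84 (11.42 and 11.4 against 17.34 and 17.17), Egfr, a growth factor receptor of precursors, by 4.23 and Ednrb, an endothelin receptor of glia, by 4.06. Slc7a11, the cystine transporter, was at least 37.5-fold lower in MN WT, Cbs, of cysteine synthesis, at least 13.5-fold, and Phgdh, the first enzyme of serine synthesis, fell by 2.81. Reln, the secreted guide of migrating neurons, was at least 29.9-fold lower, with 6.85 and 6.56 against 11.96 and 11.57. Of 29 tested axon guidance genes 7 were higher and 12 lower: the secreted semaphorin gene Sema3c was at least 9.77-fold higher, while the receptor genes Robo2 and Epha4 fell by 2.5 and 3.56 and the netrin gene Ntn1 by 2.43.

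The step in LY3201-treated WT cells used 4 other arrays and gave nearly the same picture. It called 9266 genes (42.0%), 3905 (17.7%) higher and 5361 (24.3%) lower in MN WT with LY3201. Of the 1642 genes over 2-fold higher in the untreated step 1601 (97.5%) were called in the same direction with LY3201, and of the 935 lower 923 (98.7%). Rsph4a read 13.19 and 12.63 in MN WT with LY3201, against 4.58 and 3.99 in mDPC WT with LY3201. Counts of the axoneme list were 43 higher and 0 lower, of the myelin list 16 and 0, and of the proliferation list 32 and 0. Pan-neuronal genes counted 7 higher and 7 lower.

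The spread between the treated MN arrays resembled that of the untreated ones: 324 genes lay over 2-fold apart, and 23 of the 28 pan-neuronal genes were higher in array 2 (median difference 0.52), with Stmn2 at 10.79 and 12.81 and Snap25 at 5.89 and 7.61. Of the 333 genes over 2-fold apart in MN WT, 309 (92.8%) differed with the same sign between these arrays. Most of the genes over 2-fold apart were higher in array 2 in both pairs, 309 of 333 untreated and 271 of 324 treated. The share with the same sign over all genes was not taken, so how far 92.8% exceeds it is not known. Array numbers are names in accession order and pair no cultures. Car3, a carbonic anhydrase, was the most divided, at 5.17 and 13.44 in MN WT and 7.57 and 12.98 in MN WT with LY3201, against 4.94 and 5.24 in mDPC WT.

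The difference between the untreated and the treated step was tested directly. limma called 0 of 22063 genes, with a smallest adjusted p of 0.0928, while 1463 genes (6.63%) had an unadjusted p below 0.05. Other settings called between 0 and 128: 3 among genes above the negative controls, 1 after quantile normalization, and with an array left out 128 without MN WT array 1 and 62 without MN WT with LY3201 array 1. Mobp changed by 7.67 untreated and 7.3 with LY3201, and Gpr17 by -3.34 and -5.04, a difference of 1.7 ± 0.42 (adjusted p = 0.31). That no gene was called does not show that the steps were alike.

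The step in arrays labelled BERKO shared its broad course with the WT step and differed in many genes. The label was checked first on Esr2, the gene of ERβ: it read 3.41 and 3.34 in MN WT and 3.27 and 3.33 in mDPC WT, against 4.46, 4.23 and 4.35 in MN BERKO and 4.09 and 4.17 in mDPC BERKO. The arrays labelled BERKO were thus the higher ones, all below the background line, and the labels do not say which part of the gene was deleted. That step called 11229 genes (50.9%), 4432 (20.1%) higher and 6797 (30.8%) lower in MN BERKO. Of the WT rises and falls over 2-fold the BERKO step called 1498 (91.2%) and 880 (94.1%) in the same direction. The WT step minus the BERKO step differed in 2749 genes (12.5%), 1136 (5.15%) with the larger value in the WT step and 1613 (7.31%) with the smaller. A fit of only the arrays compared called 1617.

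Mural and fibroblast genes had the larger rise in WT, while matrix genes went both ways. Dcn, given above for WT, read 4.05, 4.64 and 4.37 in MN BERKO and 4.72 and 4.77 in mDPC BERKO, and its change was larger in the WT step by 5 ± 0.3 (adjusted p = 2e-09). Postn, a matricellular gene, differed by 3.43 ± 0.19 and Thbs1 by 3.5 ± 0.31. Of 12 mural and fibroblast genes 7 had a higher change in the WT step and 0 a lower one, but of 24 brain matrix genes 3 had a higher and 9 a lower one. Col6a1, which rose in both genotypes, read 12.63, 12.87 and 13.07 in MN BERKO, against 5.62 and 5.45 in mDPC BERKO, and its change was lower in the WT step (difference -3.48 ± 0.26, adjusted p = 2.6e-08). Of 18 myelin genes 13 had a higher change in the WT step: Mobp rose in the BERKO step as well, to 8.34, 9.1 and 8.44 against 3.14 and 3.29, and differed by 2.26 ± 0.41 (adjusted p = 0.00069), and the sphingolipid hydroxylase gene Fa2h, at least 2.22-fold higher in the WT step, read 6.56, 7.3 and 7.16 in MN BERKO against 7.22 and 6.99 in mDPC BERKO (difference 2.79 ± 0.38).

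Ciliary and proliferation genes had the smaller rise in WT. Of the 50 axoneme genes 35 had a lower change in the WT step and 1 a higher one, and of 12 regulators 9 and 0. Deup1 read 7.62, 6.88 and 7.67 in MN BERKO, against 3.52 and 3.59 in mDPC BERKO, and thus rose past the line where the WT arrays did not (difference -3.08 ± 0.22, adjusted p = 2e-08); Myb differed by -2.68 ± 0.19, Tmem212 by -2.9 ± 0.24 and Spata18, a mitochondrial quality control gene found in ciliated cells, by -4.18 ± 0.21. Rsph4a differed less, by -0.93 ± 0.27 (adjusted p = 0.027), and Enkur did not pass (-0.23 ± 0.29, adjusted p = 0.73). Mki67 read 12.71, 12.97 and 12.9 in MN BERKO, against 5.12 and 5.05 in mDPC BERKO, a difference of -3.71 ± 0.27 (adjusted p = 2e-08), and 30 of 33 proliferation genes and 16 of 22 interferon-response genes went the same way. The mDPC BERKO arrays lay below the mDPC WT arrays in Mki67, while the MN arrays spanned 11.69 to 12.24 in WT and 12.71 to 12.97 in BERKO.

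In some genes the genotypes stood apart at the precursor stage. Gfap stood at 18.95, 18.97 and 18.98 in MN BERKO, but at 13.43 and 13.17 in mDPC BERKO (difference -3.28 ± 0.29, adjusted p = 2.6e-07). All MN values of Gfap lay close together near the top of the measured scale, and whether the arrays can tell levels apart there was not tested, so the size of this difference is uncertain. Prom1 read 7.03, 7.05 and 6.98 in MN BERKO and 7.25 and 7.19 in mDPC BERKO, so that its fall was seen in the WT step (difference -2.64 ± 0.18). Asns, asparagine synthetase of the amino acid stress response, did not pass in the WT step (0.12 ± 0.13) and read 7.79, 8.07 and 7.94 in MN BERKO against 10.75 and 10.28 in mDPC BERKO (difference 2.71 ± 0.18). Susd2, a sushi-domain membrane protein, stood apart at the MN stage: it read 10.24, 10.25 and 10.05 in MN BERKO, against 4.36 and 4.35 in mDPC BERKO, and differed by -5.27 ± 0.17 (adjusted p = 1e-12). Padi2, which citrullinates proteins, stood apart at both stages, with 10.35 and 9.41 in MN WT and 8.68 and 8.33 in mDPC WT, against 12.94, 13.12 and 12.83 in MN BERKO and 6.39 and 6.44 in mDPC BERKO (difference -5.17 ± 0.29).

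**Figure D5:**
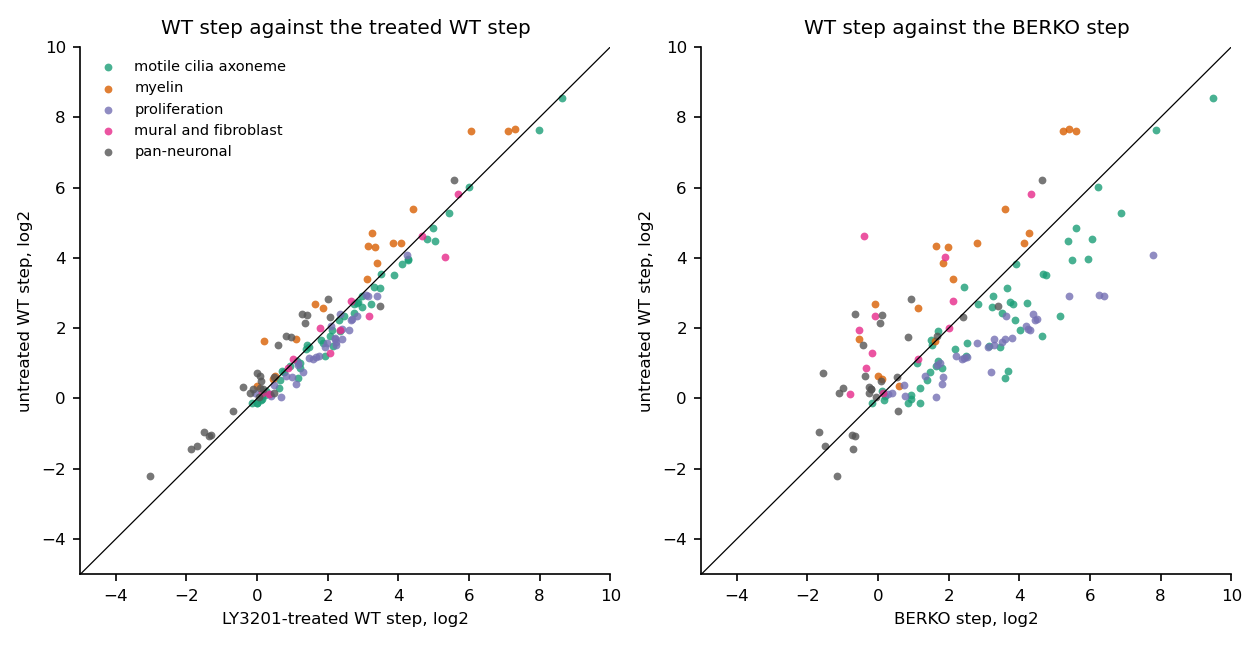
Log2 change of the untreated WT step (y axis) against that of the LY3201-treated WT step and of the BERKO step (x axes), for axoneme, myelin, proliferation, mural and fibroblast, and pan-neuronal genes (points). Points follow the diagonal in the LY3201 panel, and in the BERKO panel proliferation and many axoneme genes lie below it and mural and fibroblast genes above it.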

How the data were processed

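Total RNA of 29 samples in 14 groups was read on Affymetrix MTA 1.0 arrays. The authors deposited log2 levels made with SST-RMA, per the labels; the submitters' processing notes name Affymetrix Expression Console 1.4, RMA and Transcriptome Analysis Console. They were used as deposited. Of 72688 entries, 6732 controls were set aside, and 65956 transcript clusters remained, 30604 with 1 gene symbol, 2146 with several and 33206 with none in the platform annotation; only those with 1 symbol were named, and 827 symbols were updated through RefSeq (GRCm38.p6). The cluster with the highest mean stood for each of 355 genes with several, leaving 30142 genes, of which 22063 exceeded the median level of an array's clusters on 2 or more arrays and were tested.

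Group means were fitted over all 29 arrays with limma 3.58.1 (R 4.3.3; 15 residual degrees of freedom, prior 3.303), which shares 1 estimate of the spread among groups, and p-values were adjusted by Benjamini-Hochberg. The fit was tested on simulated data. Tables and plots used Python 3.11.15, pandas 2.3.3, NumPy 2.4.6 and Matplotlib 3.10.9. With 2 arrays in most groups, the number of arrays limits the precision.

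The comparison, its members and the 42 gene lists (759 symbols, 61 without a cluster) were chosen with earlier results of these data known, and a list is described by counts and its median without a test of its own. Named genes were taken by rule from each list (called members of the largest change, up to 8, and defining markers), from called genes without overlap between groups (the 20 that rose most and the 20 that fell most), from the 15 genes in each direction with the largest difference between the MN WT arrays, and from the 8 largest differences in each direction between the WT and BERKO steps. Alternatives were other filters, quantile normalization, a trended prior, a fit of only the arrays compared, clusters in place of genes, and leaving out each array in turn.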

Additional observations from a re-analysis of the deposited data

Results flagged for a closer look

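The genotypes gave the one difference between steps that passed a test: the change from mDPC to MN in WT minus that in BERKO was called in 2749 genes (limma, all genes adjusted together). Of the genes named here the signed change was higher in the WT step for Dcn (a log2 difference of 5), Thbs1 (3.5), Postn (3.43), Fa2h (2.79), Asns (2.71, a fall in BERKO with no call in WT) and Mobp (2.26). It was lower in the WT step, through a smaller rise or, in Prom1, a larger fall, for Susd2 (-5.27), Padi2 (-5.17), Spata18 (-4.18), Mki67 (-3.71), Col6a1 (-3.48), Gfap (-3.28), Deup1 (-3.08), Tmem212 (-2.9), Myb (-2.68), Prom1 (-2.64) and Rsph4a (-0.93). The labels give 1 line for each genotype, with 2 or 3 arrays a stage, so that genotype and line cannot be told apart.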

How the results depend on the processing

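The count of called genes in the untreated WT step was 9263, and 9277 with no filter, 8331 with a stricter filter, 9943 after quantile normalization, 9254 with a trended prior, 7443 in a fit of only the arrays compared and 9334 over clusters. Among genes above the negative controls the counts were 5474 of 8171 in the untreated WT step, 5591 of 8479 in the LY3201-treated step and 6393 of 8932 in the BERKO step; that setting tests fewer genes. Leaving out 1 array gave 7796 to 8199 genes in the untreated WT step, 7730 to 8271 in the LY3201-treated step and 9108 to 10909 in the BERKO step. The WT step minus the BERKO step called 1617 genes (617 and 1000 by direction) in a fit of only the arrays compared, which holds fewer samples, and 2072 to 2605 without 1 array. The untreated minus the LY3201-treated step called 0, with 3 above the negative controls, 1 after quantile normalization and 0 to 128 without 1 array; the cause was not tested. Of 1981 values of 205 named genes under the alternatives, 1932 kept their direction and side of the threshold, 34 lost the call, 3 gained one and 12 changed sign. Without MN WT array 2 or with it alone, the log2 change was -0.02 and 0.27 for Asns, -0.05 and 1.87 for Gad2, -0.02 and 0.15 for Nr4a2, 0.27 and -0.34 for Olig2, -0.12 and 0.73 for Slc18a2, -0.25 and 1.41 for Slc32a1, and -0.08 and 2.44 for Slc6a4. That of Lmx1a was -0.1 without mDPC WT array 1 and 0.26 without array 2, and -0.04 without MN WT array 2. For Sox2 it was 0.05 and -0.14 without mDPC WT array 1 or 2 and 0.05 after quantile normalization, where Nr4a2 gave -0.03. Lists with few called members were least stable: without MN WT array 2 the glutamatergic count went to 0 and the GABAergic one to 2. No paired analysis was possible because the labels give no replicate numbers and array numbers follow accession order. Levels below the background line and 2 arrays a group limit what can be told apart.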

Other observations

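Cholesterol, growth factor and metabolic genes also differed between MN WT and mDPC WT. Of 12 tested cholesterol genes 7 were higher and 2 lower in MN WT: Sqle, which makes the epoxide of squalene, read 11.33 and 11.6 in MN WT, against 10.25 and 10.07 in mDPC WT (log2 change 1.3 ± 0.1, adjusted p = 1.2e-09, limma), Fdps rose by 1.1 ± 0.14 and Cyp51, a demethylase later in the same pathway, fell by 0.94. Among 10 tested genes of insulin-like growth factor signalling 5 were higher and 4 lower. Igfbp5, a secreted binding protein, rose by 1.68 ± 0.16 (15.88 and 16.13 against 14.37 and 14.29), and Igfbp2 fell by 2.01 (9.15 and 9.78 against 11.71 and 11.24). Hypoxia genes did not move together, with 4 of 14 higher and 5 lower: the glucose transporter gene Slc2a1 read 14.91 and 14.76 in MN WT, against 9.9 and 9.86 in mDPC WT (4.96 ± 0.2), and Ndrg1 was at least 13.1-fold higher, while Ldha fell by 0.85 and Vegfa was at least 2.23-fold lower.

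Sorting all tested genes into families by the start of the symbol, a choice made after the data were seen, showed broad falls of small size beside the ciliary rises. Of 353 genes named Zfp, zinc finger proteins, 205 were lower and 16 higher (58.1% lower, median log2 change -0.38), beside 24.0% lower over all genes; 239 were lower and 13 higher after quantile normalization, and 220 and 13 in the LY3201-treated step. Of 24 genes named Rps, small ribosomal subunit proteins, 17 were lower and 1 higher (median -0.54), of 24 named Rpl 15 and 2, and of 17 named Kdm, histone demethylases, 13 and 0 (median -0.53). Only 125 of the Zfp genes lay above the line in both arrays of at least 1 group, with 89 lower and 7 higher. By the same measure 15 Rps genes did (12 lower and 1 higher), 19 Rpl (12 and 2) and 11 Kdm (10 and 0). The negative controls fell as well, by a median of -0.18. Ribosomal protein genes have many near-identical pseudogenes that probes may not separate. Of 32 genes named Kif, the kinesin motors of spindles, axons and cilia, 19 were higher and 2 lower, beside 18.0% higher over all genes. Above the line in both arrays of at least 1 group were 17 of them, 8 called higher and 1 lower. Kif11 is also counted among the proliferation genes.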
